A study of Homo sapiens with 12 samples.

Results

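Integrins and laminins are the cell-surface receptors and the matrix proteins that join cells to a basement membrane. The genes described here are those whose symbol names an integrin alpha chain, an integrin beta chain or a laminin alpha, beta or gamma chain, found by symbol among the probe sets that carry a single gene symbol. There were 35 such genes with 95 probe sets, of 19775 genes and 54613 probe sets in all, and 26 of them were bright enough to be tested.

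An integrin is a pair of 1 alpha and 1 beta chain, and the pair decides which matrix protein is bound: collagen, laminin, or proteins such as fibronectin that carry an RGD sequence. A laminin is a trimer of 1 alpha, 1 beta and 1 gamma chain, and laminin networks are the scaffold on which basement membranes assemble. In breast epithelium, integrins that bind laminin anchor cells to that membrane, and carcinoma cells use several integrins when they adhere, spread and migrate.

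RNA was measured on 12 single-colour Affymetrix arrays of MDA231 cells, the human line MDA-MB-231, which was established from a breast cancer without hormone receptors or amplified ERBB2. Of the 4 groups of 3 arrays, the first carried a scrambled short hairpin RNA and received ETX (ETX; the labels do not spell the abbreviation out, and it is read here as etomoxir, an inhibitor of the fatty acid importer CPT1), the second carried a lentiviral hairpin against CPT1 (shCPT-1), the third a lentiviral hairpin against CPT2 (shCPT-2), and the control carried the scrambled hairpin alone (scramble). The labels name no isoform of CPT1, no hairpin sequence, no clone, and no dose or duration of ETX for the cells on the arrays, and they do not say whether replicates within a group are separate cultures. The p-values then measure the spread among these hybridisations alone, and that spread may be technical.

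The array medians lay between 74.9 and 77.2 intensity units (6.23 to 6.27 on the log2 scale). Arrays of a group correlated at 0.9954 to 0.9984 and arrays of different groups at 0.9886 to 0.9955. The hairpin targets checked the labels: CPT1A changed by -1.59 ± 0.08 (SE) on the log2 scale in shCPT-1 and CPT2 by -1 ± 0.1 in shCPT-2. CPT1A also rose with ETX (1.11 ± 0.08) and was slightly lower in shCPT-2 (-0.23 ± 0.08), and CPT2 rose with ETX (0.27 ± 0.1). VIM, CD44, AXL, MSN and CAV1, known as abundant in this line, were above the medians on all 12 arrays. Of 9 luminal markers, the epithelial cadherin CDH1 and the progesterone receptor PGR were under them on all 12. ESR1, ERBB2, GATA3, KRT8, KRT18 and EPCAM were above them on all 12 and FOXA1 on 5, so the luminal markers went both ways. For the actin control probe sets, the difference between the 3′ and the 5′ signal, a measure of RNA integrity or labelling, was 2.25 and 2.19 log2 units on scramble 1 and 2 but 1.76 on scramble 3, and it lay between 1.45 and 1.91 on the 9 other arrays.

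All values below are log2 intensities of the brightest probe set of a gene, and changes are log2 differences with the standard error (SE) of a limma fit over 12887 genes, n = 3 arrays per group. A change was called when its p, adjusted by Benjamini-Hochberg over all of these genes, was under 0.05. Brightness differs between probe sets for reasons other than the amount of RNA, so levels of different genes are not ranked, and each is only set against the median of its own arrays.

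Of the 35 subunits, 19 were above the median on all 12 arrays, 8 on some arrays and 8 on none. The 8 integrin alpha chains above it throughout were ITGA1, ITGA2, ITGA3, ITGA5, ITGA6, ITGA10, ITGAE and ITGAV. The 6 beta chains were ITGB1, ITGB2, ITGB3, ITGB4, ITGB5 and ITGB7, and the 5 laminin chains were LAMA5, LAMB1, LAMB2, LAMB3 and LAMC1. LAMA5 was thus the laminin alpha chain above the medians throughout, and with LAMC1 and either LAMB1 or LAMB2 it gave the 2 laminin trimers, of 11 with every chain measured, whose chains were all above them. Of 23 known integrin pairs with both chains measured, 11 had both above the medians, including the collagen receptors of ITGA1, ITGA2 or ITGA10 with ITGB1, the fibronectin receptor of ITGA5 with ITGB1, the laminin receptors of ITGA3 or ITGA6 with ITGB1 and of ITGA6 with ITGB4, and ITGAV with ITGB1, ITGB3 or ITGB5.

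The chains under the medians on all arrays were ITGA4 and ITGA9, receptors for VCAM1 and other ligands, ITGAL and ITGAX, leukocyte chains that pair with ITGB2, and LAMA1, LAMA4, LAMB4 and LAMC3. Their group means lay between 4.02 (ITGA4 in scramble) and 6.08 (LAMC3 in scramble). In between were ITGAM, above the median on 2 arrays, ITGA11 on 3, ITGA2B on 4, LAMA2 on 5, ITGA8 on 6, and ITGA7 and ITGAD on 7 arrays each, with group means between 6.03 and 6.42. ITGB8 was also above on 6 arrays, but these were all 3 ETX and all 3 scramble arrays, while all 6 knockdown arrays were under it. A gene was tested when a probe set exceeded the median on at least 3 arrays. ITGAM thus just missed the test and ITGA11 just entered it, through 2 scramble arrays and 1 shCPT-1 array. ITGB8 entered the test only through the groups in which it was bright.

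Being above the median is a statement of brightness, not of presence. Of 7 measured leukocyte markers CD3E and CD79A were above it on all 12 arrays, although PTPRC, CD14, LYZ, TYROBP and CD53 were under it on all 12, and of 5 platelet markers PF4 and GP9 were above it throughout. Group means summed over the leukocyte markers lay between 40.21 and 40.69 and over the platelet markers between 27.07 and 27.6. The leukocyte chain ITGB2 was above the medians here while ITGAL and ITGAX were under them. The markers of luminal epithelium (6 of 9 above on all arrays, summed means of 72.23 to 73.1), endothelium (2 of 5, 29.64 to 30.91), fibroblasts (1 of 6, 33.65 to 34.04) and muscle and Schwann cells (0 of 3, 14.61 to 14.91) were read in the same way. KDR of endothelium moved most, with means of 7.02 with ETX, 5.99 in shCPT-1 and 6.18 in shCPT-2, against 6.63 in scramble, while CDH5 was under the medians on all 12 arrays. The part of other cell types in the changes below was not tested. The probe sets of ITGB6 name a further gene as well and were not used here.

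**Figure D1:**
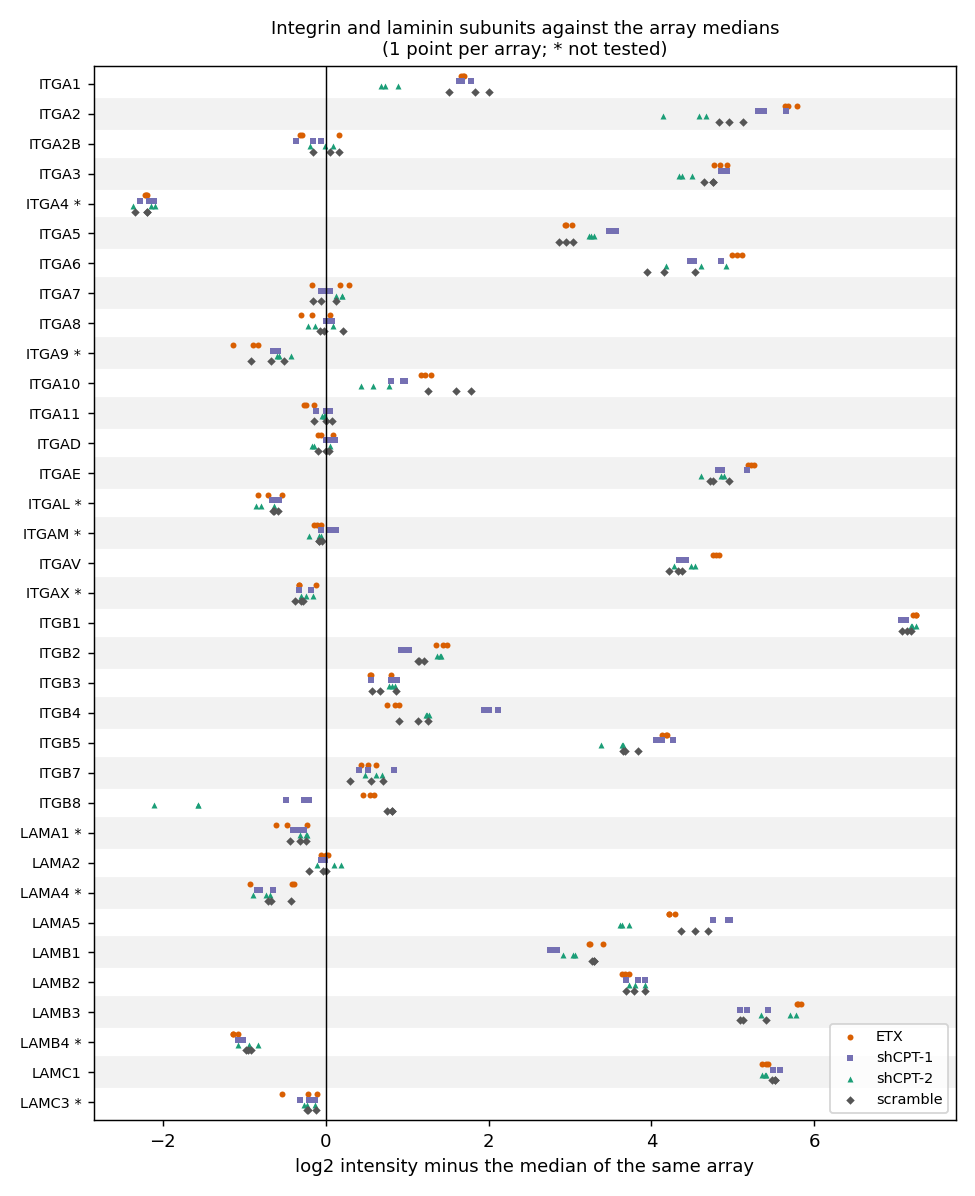
Log2 intensity of each of the 35 subunits minus the median of the same array, with 1 point for each of the 12 arrays, coloured by group (ETX, shCPT-1, shCPT-2, scramble) and taken from the brightest probe set of each gene. Asterisks mark the 9 genes that were not tested, the vertical line is the array median, 19 genes lie to its right on every array, and ITGB8 crosses it between groups.

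With ETX the called rises were those of ITGA6, ITGA2, LAMB3, ITGAV, ITGB5, ITGAE and ITGB2, between 0.25 and 0.83 on the log2 scale, and the called falls were those of ITGA10, LAMA5, ITGB4, ITGA11 and LAMC1, between -0.33 and -0.12. In number, 7 of 26 tested subunits were higher (26.9%), against 21.9% of all 12887 genes, and 5 were lower (19.2%), against 19.4%. The share of subunits called was therefore near that of all genes in both directions. Their median change was -0.01, against -0.013 over all genes, and no subunit changed by 2-fold or more. Of the 5 falls, only 1, that of ITGA11, was still called when scramble 1 was left out or when the actin control signal was a covariate. Without scramble 2 or without ETX 2 the count was 2, and without ETX 1 it was 3. ITGA11 entered the test through 2 scramble arrays and 1 shCPT-1 array, with 0 ETX arrays above the median. Its fall is part of the 5 and is given as a description.

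In shCPT-1 the beta chain ITGB4 rose most and ITGB8 fell most. The called rises were those of ITGB4 (0.90), ITGA5 (0.56), ITGA2 (0.46), ITGB5 (0.41) and LAMA5 (0.34), and the called falls those of ITGB8 (-1.14), ITGA10 (-0.66), LAMB1 (-0.51) and ITGB2 (-0.21). These are 5 of 26 higher (19.2%), against 23.1% of all genes, and 4 lower (15.4%), against 18.0%. Without ITGB8, which entered the test only through its bright groups, 3 of 25 were lower (12%). The members' median change was 0.02, against 0.0075 over all genes.

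In shCPT-2 falls were more numerous. ITGB8 fell by 2.57, ITGA1 by 1.04, ITGA10 by 0.97, LAMA5 by 0.89, ITGA2 by 0.53, ITGA3 by 0.34, LAMB1 by 0.30 and LAMC1 by 0.14, while LAMB3 (0.37), ITGA5 (0.28) and ITGB2 (0.21) rose. The 8 falls are 30.8% of 26, against 20.5% of all genes, and the 3 rises 11.5%, against 25.6%. Without ITGB8 7 of 25 were lower (28%). The members' median change was -0.04, against 0.0046 over all genes. Without shCPT-2 2 the number of rises was 5, with ITGA6 and ITGAV added to the 3. The 3 comparisons share the scramble arrays, so they are set side by side below and no agreement between them is counted.

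**Figure D2:**
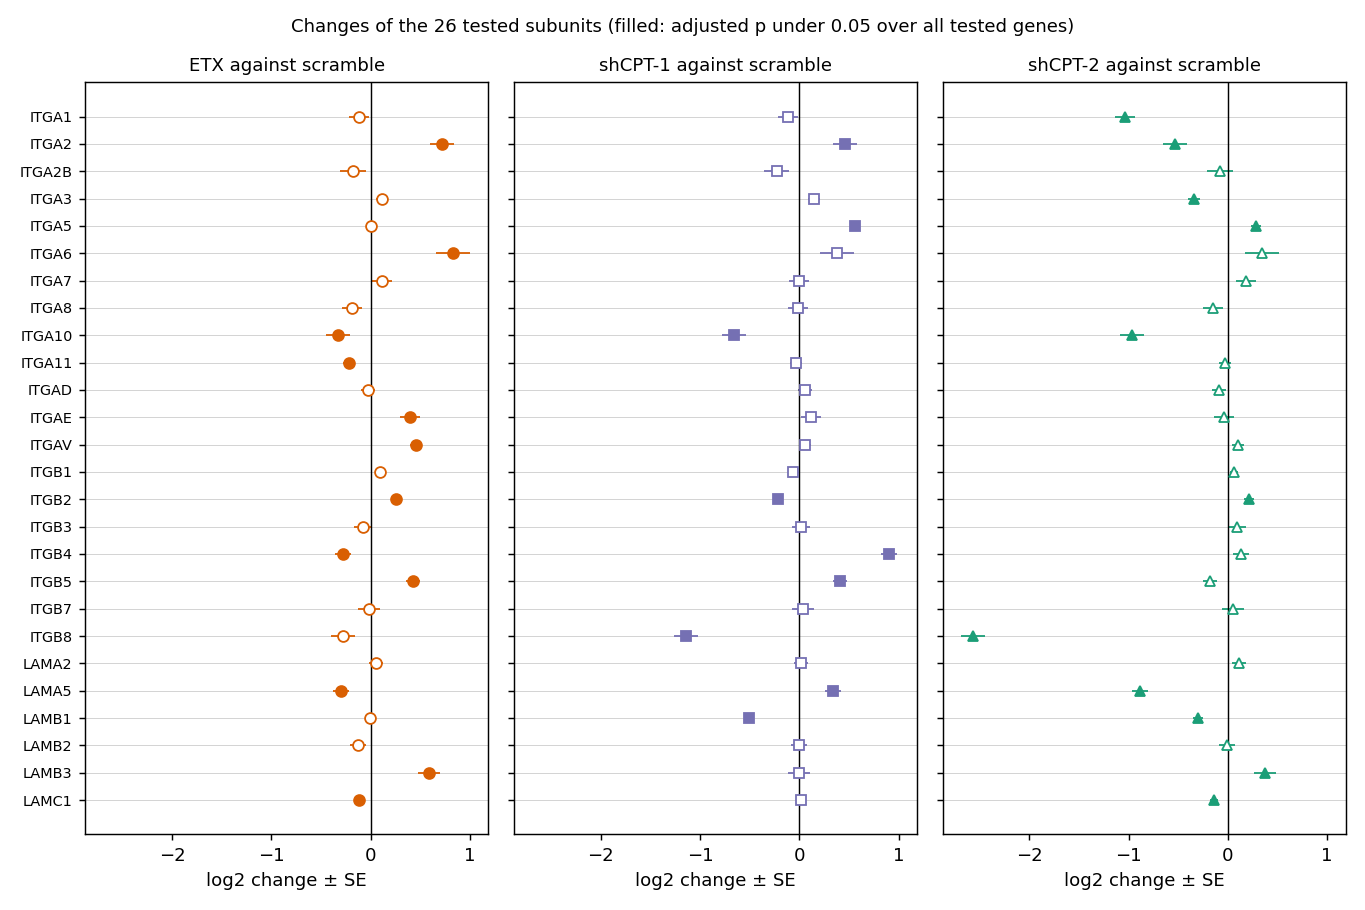
Log2 change ± SE of the 26 tested subunits against scramble, in a panel each for ETX, shCPT-1 and shCPT-2 (n = 3 arrays per group). Filled symbols passed an adjusted p under 0.05 over all tested genes, and ITGB8 in shCPT-2, at -2.57, is the farthest point from 0.

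The collagen-binding alpha chains are ITGA1, ITGA2, ITGA10 and ITGA11, all partners of ITGB1. ITGA1, a receptor with a preference for basement membrane collagen, read 7.12, 6.98 and 6.92 on the shCPT-2 arrays, against 8.27, 8.11 and 7.77 in scramble. The groups did not overlap, and shCPT-2 was 2.06-fold lower (-1.04 ± 0.10 SE, adjusted p = 4.64e-06). The ETX arrays, at 7.94, 7.92 and 7.93, and the shCPT-1 arrays, at 7.88, 8.02 and 7.92, lay within the range of scramble and were not called (-0.12 and -0.11). ITGA1 was also lower in shCPT-2 than in shCPT-1 (-0.93 ± 0.10, adjusted p = 2.12e-05).

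ITGA2, a receptor for fibrillar collagen that can also bind laminin, moved in opposite directions. It read 11.93, 11.9 and 12.02 with ETX, 11.89, 11.55 and 11.62 in shCPT-1 and 10.9, 10.39 and 10.82 in shCPT-2, against 11.1, 11.22 and 11.37 in scramble. All ETX and all shCPT-1 arrays were above, and all shCPT-2 arrays under, every scramble array. The changes were 0.72 ± 0.12 with ETX (adjusted p = 0.000865), 0.46 ± 0.12 in shCPT-1 (adjusted p = 0.0112) and -0.53 ± 0.12 in shCPT-2 (adjusted p = 0.00415). The rises rest on this probe set. The other kept probe set of ITGA2 changed by 0.04 with ETX and -0.01 in shCPT-1, neither called, and by -1.02 in shCPT-2 (adjusted p = 3.07e-07). The fall in shCPT-2 was thus common to both probe sets and the rises were not. The rise in shCPT-1 was not called without shCPT-1 1 (0.36, adjusted p = 0.0524) or with the actin covariate (0.22, adjusted p = 0.103).

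ITGA10, a collagen receptor best known from cartilage, was lower in each comparison. It read 7.54, 7.48 and 7.4 with ETX, 7.04, 7.22 and 7.19 in shCPT-1 and 7.01, 6.83 and 6.68 in shCPT-2, against 8.05, 7.87 and 7.51 in scramble. Both knockdowns lay wholly under scramble, whereas ETX overlapped it. The falls were -0.66 ± 0.12 in shCPT-1 (adjusted p = 0.000825) and -0.97 ± 0.12 in shCPT-2 (adjusted p = 3.34e-05). With ETX the change of -0.33 ± 0.12 was just past the threshold (adjusted p = 0.0409). That call ended when any of scramble 1 (-0.21), scramble 2 (-0.30), ETX 1 (-0.37), ETX 2 (-0.34), ETX 3 (-0.29), shCPT-1 2, shCPT-1 3 or shCPT-2 2 (-0.33 in each of these 3 fits) was left out, and with the actin covariate (-0.14). It also ended with no filter, with the filter at the array 25th percentile, and when only the groups compared were fitted (-0.33 in each). The 3 scramble arrays, with an SD of 0.28, spread more than any of the treated groups. ITGA11, a receptor for fibrillar collagen usually made by fibroblasts, lay at the array medians and was lower with ETX (-0.22 ± 0.06, adjusted p = 0.0126), a change between means of 6.03 and 6.25. Since ITGA11 entered the test through scramble and shCPT-1 arrays alone, that fall is given as a description. It did not pass in shCPT-1 or shCPT-2 (-0.03 in each).

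Of the laminin-binding alpha chains, ITGA6, which pairs with ITGB1 or with ITGB4, had the largest rise with ETX. It read 11.3, 11.37 and 11.22 with ETX, against 10.22, 10.42 and 10.78 in scramble, with no overlap (1.77-fold, 0.83 ± 0.17, adjusted p = 0.00257). With the actin covariate that rise was 0.53 and still called (adjusted p = 0.016). The knockdown arrays were spread more widely, 11.09, 10.76 and 10.71 in shCPT-1 and 11.15, 10.43 and 10.85 in shCPT-2, and overlapped scramble (0.38 and 0.34, adjusted p = 0.0961 and adjusted p = 0.13). Both of these were called when scramble 3 or shCPT-2 2 was left out. Across the alternatives listed at the end, however, ITGA6 changed by 0.07 to 0.6 in shCPT-1 and by -0.02 to 0.52 in shCPT-2. These ranges leave out further probe sets taken alone. The other kept probe set of ITGA6 changed by 0.98 with ETX and 0.83 in shCPT-1, both called, and by 0.53 in shCPT-2, not called.

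ITGA3, a laminin receptor of epithelia that pairs with ITGB1, was lower in shCPT-2. It read 10.6, 10.75 and 10.58 there, against 11.02, 11.02 and 10.9 in scramble (-0.34 ± 0.06, adjusted p = 0.000487). It did not pass with ETX (0.11, adjusted p = 0.146) or in shCPT-1 (0.15, adjusted p = 0.053), although the shCPT-1 arrays at 11.09 to 11.17 were all above scramble. With the actin covariate both of these rises of ITGA3 were called (0.20 with ETX and 0.25 in shCPT-1). ITGA7, the laminin receptor of muscle, stayed near the medians, with group means of 6.23 to 6.42, and was not called in any comparison against scramble.

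ITGB4, the beta chain that pairs with ITGA6 in hemidesmosomes, had the largest rise in shCPT-1. The shCPT-1 arrays read 8.18, 8.25 and 8.36, against 7.53, 7.4 and 7.15 in scramble, a gap wider than the spread of either group (1.87-fold, 0.90 ± 0.08, adjusted p = 3.86e-06). The ETX arrays, at 7.1, 7.02 and 7.13, lay just under scramble (-0.28 ± 0.08, adjusted p = 0.0189), and the shCPT-2 arrays, at 7.46, 7.52 and 7.49, overlapped it (0.13, adjusted p = 0.234). Between the treatments ITGB4 was 2.26-fold higher in shCPT-1 than with ETX (1.18 ± 0.08, adjusted p = 2.95e-07) and lower in shCPT-2 than in shCPT-1 (-0.77 ± 0.08, adjusted p = 1.93e-05). The rise in shCPT-1 was seen in another kept probe set (0.49, adjusted p = 4.84e-05) and not in the remaining kept probe set (-0.09, adjusted p = 0.423). The ETX change was not called without scramble 1 (-0.19), scramble 2 (-0.25) or ETX 2 (-0.24), nor with the actin covariate (-0.16), and the other kept probe sets gave 0.09 and -0.09 there, neither called. Fitting only the groups compared (-0.28) or averaging the kept probe sets (-0.09) also ended the ETX call of ITGB4.

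Among the alpha chains that recognise RGD sequences, ITGA5, the partner of ITGB1 in the main fibronectin receptor, was higher in both knockdowns. It read 9.72, 9.79 and 9.81 in shCPT-1 and 9.52, 9.51 and 9.47 in shCPT-2, against 9.31, 9.22 and 9.11 in scramble. Neither knockdown overlapped scramble or the other. The rises were 0.56 ± 0.05 in shCPT-1 (adjusted p = 4.66e-06) and 0.28 ± 0.05 in shCPT-2 (adjusted p = 0.00079), and shCPT-2 was lower than shCPT-1 (-0.28 ± 0.05, adjusted p = 0.0013). The ETX arrays, at 9.19, 9.21 and 9.25, gave a change of 0.00 ± 0.05.

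ITGAV, the alpha chain of vitronectin receptors and of integrins that activate latent TGF-beta, rose with ETX. It read 11.04, 11.09 and 10.98 there, against 10.49, 10.65 and 10.58 in scramble (1.38-fold, 0.46 ± 0.06, adjusted p = 0.000214). The knockdowns lay at 10.58 to 10.66 (shCPT-1) and 10.53 to 10.76 (shCPT-2), overlapping scramble (0.06 and 0.10, not called), and both were lower than ETX (-0.40 ± 0.06 and -0.36 ± 0.06, adjusted p = 0.000269 and adjusted p = 0.000529). ITGA8, its relative from smooth muscle and kidney, and ITGA2B, the platelet fibrinogen receptor chain, lay near the medians and were not called in any comparison.

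ITGB5, which pairs with ITGAV as a vitronectin receptor, rose with ETX and in shCPT-1. It read 10.44, 10.39 and 10.41 with ETX, 10.51, 10.3 and 10.37 in shCPT-1 and 9.87, 9.63 and 9.89 in shCPT-2, against 9.95, 9.92 and 10.08 in scramble. The ETX and shCPT-1 arrays were all above scramble (0.43 ± 0.07 and 0.41 ± 0.07, adjusted p = 0.000857 and adjusted p = 0.000839), and the shCPT-2 arrays were all under it without passing (-0.18 ± 0.07, adjusted p = 0.0617). All 3 other kept probe sets of ITGB5 were called as higher with ETX (0.27 to 0.41) and in shCPT-1 (0.23 to 0.72) and as lower in shCPT-2 (-0.49 to -0.25). With the actin covariate the rise in shCPT-1 was 0.27, still called. The difference between shCPT-2 and ETX passed at the gene's own probe set (-0.61 ± 0.07, adjusted p = 2.76e-05).

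ITGB8, which pairs with ITGAV in a receptor that binds latent TGF-beta, fell more than any other tested subunit in both knockdowns. It read 5.75, 5.97 and 6.04 in shCPT-1 and 4.66, 4.14 and 4.68 in shCPT-2, against 7.08, 7.09 and 7.01 in scramble. No group overlapped another, and the ETX arrays, at 6.8, 6.86 and 6.69, lay just under scramble. The fall was 2.20-fold in shCPT-1 (-1.14 ± 0.12, adjusted p = 1.48e-05) and 5.93-fold in shCPT-2 (-2.57 ± 0.12, adjusted p = 1.16e-08), and shCPT-2 was 2.69-fold under shCPT-1 (-1.43 ± 0.12, adjusted p = 3.31e-06). The ETX change of -0.28 ± 0.12 was not called (adjusted p = 0.0924). It was called when only the ETX and scramble arrays were fitted (adjusted p = 0.00953) and when shCPT-2 2 was left out. On average the knockdowns stood at -0.32 (shCPT-1) and -1.75 (shCPT-2) relative to the array medians, against 0.8 in scramble. These folds and p-values therefore set a bright group against values not above the medians, where a fold is less certain, and since ITGB8 entered the test only through its bright groups they are given as a description. The other 4 probe sets of ITGB8 were under the medians on all 12 arrays and give no second reading. In bulk RNA, fewer cells with a transcript and less of it per cell cannot be told apart. LTBP1, which holds latent TGF-beta in the matrix, also fell in both knockdowns (-0.59 ± 0.06 in shCPT-1 and -1.31 ± 0.06 in shCPT-2, adjusted p = 4.78e-06 and adjusted p = 4.32e-09).

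ITGB1, the common partner of most alpha chains here, was nearly level at its brightest probe set, with group means of 13.48 ± 0.03 (SD) with ETX, 13.33 ± 0.03 in shCPT-1 and 13.45 ± 0.02 in shCPT-2, against 13.39 ± 0.06 in scramble. No change against scramble was called there (0.09, -0.06 and 0.06). Its 2 other kept probe sets rose with ETX (0.66 and 0.41) and in shCPT-2 (0.45 and 0.40) and were not called in shCPT-1 (0.30 and 0.27). The probe sets of ITGB1 therefore differ on whether it changed, and the cause of this was not tested. ITGB2, the beta chain of leukocyte integrins, moved little: 0.25 ± 0.05 with ETX, -0.21 ± 0.05 in shCPT-1 and 0.21 ± 0.05 in shCPT-2, all called (adjusted p = 0.00166, adjusted p = 0.00368 and adjusted p = 0.00285). Of its 2 other kept probe sets 1 was called, with ETX (0.22). ITGB3, the partner of ITGAV and of the platelet chain, and ITGB7, of lymphocyte integrins, had changes of -0.08 to 0.09 and were not called. ITGAE, the alpha chain of intraepithelial lymphocytes that pairs with ITGB7 and binds CDH1, was higher with ETX (11.44 to 11.52, against 10.99 to 11.2 in scramble, 0.40 ± 0.10, adjusted p = 0.00576), and with the actin covariate the rise was 0.23. ITGAD, a leukocyte chain at the medians, was not called.

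**Figure D3:**
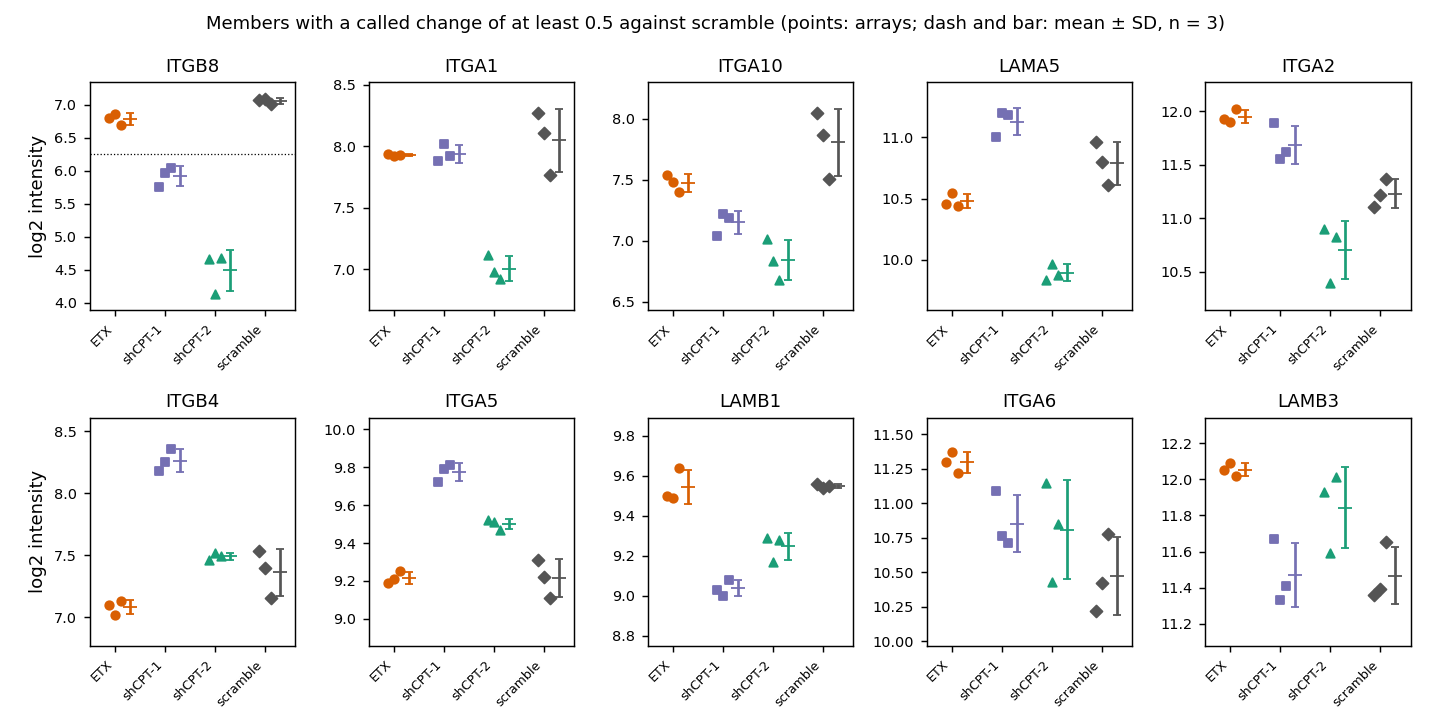
Log2 intensity on each array for the 10 subunits with a called change of at least 0.5 against scramble, in the order ETX, shCPT-1, shCPT-2 and scramble, with the mean ± SD of 3 arrays beside the points. The dotted line in the ITGB8 panel is the mean array median, above which lie the ETX and scramble arrays (6.69 to 7.09) and under which lie the knockdown arrays (4.14 to 6.04).

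LAMA5, the alpha chain of the laminins found in most mature epithelial basement membranes, took different directions in the knockdowns. It read 10.46, 10.55 and 10.44 with ETX, 11, 11.2 and 11.18 in shCPT-1 and 9.84, 9.97 and 9.88 in shCPT-2, against 10.96, 10.8 and 10.61 in scramble. The shCPT-1 arrays were all above scramble and the ETX and shCPT-2 arrays all under it. It was higher in shCPT-1 (0.34 ± 0.08, adjusted p = 0.00588) and lower in shCPT-2 (1.86-fold, -0.89 ± 0.08, adjusted p = 3.05e-06). The difference between shCPT-2 and shCPT-1 was 2.35-fold (-1.23 ± 0.08, adjusted p = 3.71e-07). The ETX change of -0.30 ± 0.08 (adjusted p = 0.0112) was not called without scramble 1 (-0.22, adjusted p = 0.0503) or with the actin covariate (-0.16). LAMA5 has 1 probe set with a single symbol. A further probe set names LAMA5-AS1 as well and was not used, so no second reading is given.

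Among the beta and gamma chains, LAMB1, the beta chain of the widely made laminins, fell in both knockdowns. It read 9.03, 9 and 9.08 in shCPT-1 and 9.29, 9.17 and 9.28 in shCPT-2, against 9.56, 9.54 and 9.55 in scramble, with no overlap between any of these groups. The falls were -0.51 ± 0.05 (adjusted p = 8.15e-06) and -0.30 ± 0.05 (adjusted p = 0.000408), its second kept probe set gave -0.50 and -0.41, and shCPT-2 was above shCPT-1 (0.21 ± 0.05, adjusted p = 0.00697). With ETX it was not called at this probe set (-0.01 ± 0.05), and the second gave -0.15 (adjusted p = 0.044). LAMB2, its counterpart at synapses and in the kidney filter, was not called against scramble (-0.13, 0.00 and -0.01).

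LAMB3, the beta chain of the epidermal laminin that ITGA6 and ITGB4 bind in hemidesmosomes, rose with ETX. It read 12.05, 12.09 and 12.02 there, against 11.36, 11.39 and 11.65 in scramble, with no overlap (1.5-fold, 0.59 ± 0.11, adjusted p = 0.00179). With the actin covariate the rise was 0.35 and still called (adjusted p = 0.00155). The shCPT-1 arrays, at 11.67, 11.33 and 11.41, overlapped scramble and were not called (0.00 ± 0.11, adjusted p = 0.992). With the actin covariate the change in shCPT-1 was -0.25 and called as a fall (adjusted p = 0.00866). The shCPT-2 arrays, at 11.93, 11.59 and 12.01, overlapped scramble (0.37 ± 0.11, adjusted p = 0.0177), and that call ended without scramble 1 (0.32), scramble 2 (0.34), shCPT-2 1 (0.33) or shCPT-2 3 (0.29) and with the actin covariate (0.09). LAMC1, the common gamma chain, moved by -0.12 ± 0.04 with ETX (adjusted p = 0.032) and -0.14 ± 0.04 in shCPT-2 (adjusted p = 0.0126), and its second kept probe set fell in shCPT-1 instead (-0.34, adjusted p = 0.00133). The ETX call of LAMC1 ended without scramble 1, scramble 2, scramble 3, ETX 1 or ETX 2, each left out in turn (-0.13 to -0.10). It also ended in other alternatives, among them no filter, the replicate block and the actin covariate. LAMA2, the alpha chain of muscle laminin, lay at the medians and was not called.

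**Figure D4:**
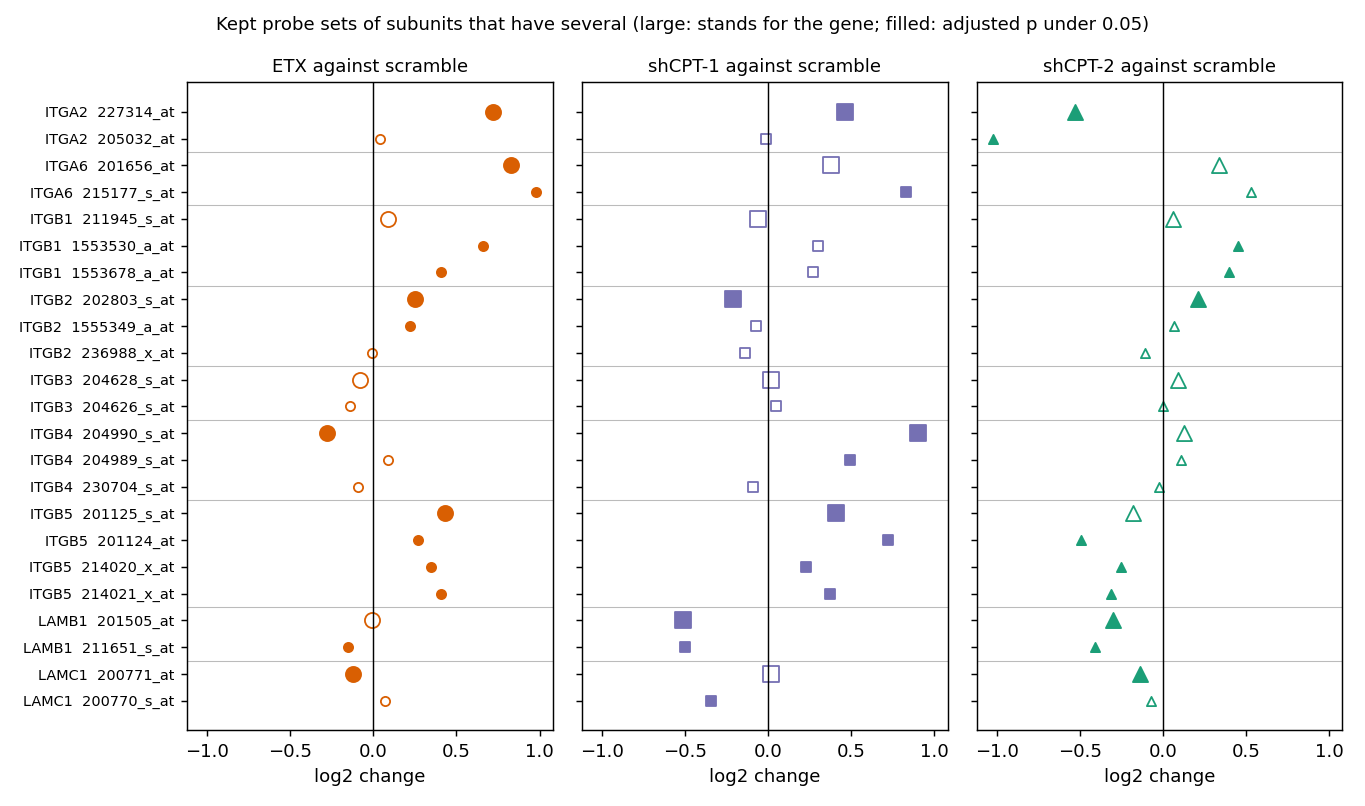
Log2 change against scramble of each kept probe set of the 9 subunits that have several, in a panel each for ETX, shCPT-1 and shCPT-2; the large symbol is the brightest probe set, which stands for the gene, and filled symbols passed an adjusted p under 0.05 in a fit over all kept probe sets. Those of ITGB5 move together in every panel, while those of ITGA2 and ITGB1 differ with ETX (0.72 against 0.04, and 0.09 against 0.66 and 0.41).

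The promoters of 4 members are shown: ITGB8, ITGA1 and LAMA5, with 3 of the 4 largest falls in shCPT-2, and ITGA5, which rose in both knockdown comparisons. The fall of ITGB8 is a description only, since ITGB8 entered the test through its bright groups. Each promoter is 300 bases of RefSeq's table on GRCh38.p14, 250 before and 50 after the start site that the table uses, written 5′ to 3′ on the gene's strand. That site is the outermost annotated start of ITGA1, LAMA5 and ITGA5, whereas for ITGB8 it lies 1134 bases inside the gene's outermost start, and the ITGB8 window does not span that outer start. Capitals mark matches, on either strand, to the GC box of Sp1 (GGGCGG), the AP-1 site (TGANTCA), the cyclic AMP element (TGACGTCA), the TATA box (TATAAA), the E-box (CACGTG) and an ETS site (CCGGAAG).
ITGB8, chr7:20330650-20330949, plus strand: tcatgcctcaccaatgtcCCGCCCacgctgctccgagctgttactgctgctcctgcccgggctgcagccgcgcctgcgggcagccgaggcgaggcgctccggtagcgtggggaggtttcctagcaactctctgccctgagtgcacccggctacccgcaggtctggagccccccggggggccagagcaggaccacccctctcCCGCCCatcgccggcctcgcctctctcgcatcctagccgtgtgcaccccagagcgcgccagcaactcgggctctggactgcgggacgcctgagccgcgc
ITGA1, chr5:52787666-52787965, plus strand: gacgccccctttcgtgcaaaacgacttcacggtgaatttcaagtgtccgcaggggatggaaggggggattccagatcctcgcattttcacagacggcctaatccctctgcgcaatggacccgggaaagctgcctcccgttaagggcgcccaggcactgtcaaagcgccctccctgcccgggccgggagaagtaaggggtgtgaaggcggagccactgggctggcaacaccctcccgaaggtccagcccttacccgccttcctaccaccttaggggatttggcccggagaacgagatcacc
LAMA5, chr20:62367263-62367562, minus strand: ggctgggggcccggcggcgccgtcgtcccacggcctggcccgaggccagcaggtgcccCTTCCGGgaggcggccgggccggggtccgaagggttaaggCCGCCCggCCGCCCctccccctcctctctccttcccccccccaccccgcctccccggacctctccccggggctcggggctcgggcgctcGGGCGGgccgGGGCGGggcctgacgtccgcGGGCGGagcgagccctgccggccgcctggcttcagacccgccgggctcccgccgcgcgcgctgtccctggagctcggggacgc
ITGA5, chr12:54419217-54419516, minus strand: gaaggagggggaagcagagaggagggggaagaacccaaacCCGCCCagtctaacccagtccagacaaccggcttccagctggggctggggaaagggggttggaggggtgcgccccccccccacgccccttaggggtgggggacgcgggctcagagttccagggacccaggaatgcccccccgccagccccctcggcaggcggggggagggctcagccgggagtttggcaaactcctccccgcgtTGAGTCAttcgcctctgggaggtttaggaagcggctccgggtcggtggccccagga

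The ITGB8 window held 2 GC boxes, that of LAMA5 5 GC boxes and 1 ETS site, that of ITGA5 1 GC box and 1 AP-1 site, and that of ITGA1 none of these letters. Of 35116 promoter windows in the table, 45% held a GC box, 10.3% the ETS letters, 7.71% an AP-1 site, 11.5% a TATA box, 7.26% the E-box and 1.85% the cyclic AMP element. Promoter windows were found for 24 of the 35 members, of which 13 held a GC box and 1, that of ITGA5, an AP-1 site. None of the 6 motifs was in all 3 windows of ITGB8, ITGA1 and LAMA5. The GC content was 71.7% for ITGB8, 61.7% for ITGA1, 82.7% for LAMA5 and 69.3% for ITGA5, against a median of 58.7% over all windows.

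Set directly against each other, the treatments differed in many of these genes, as they did over all genes. In shCPT-1 against ETX 13 of 26 subunits were called (50.0%), against 42.7% of all genes. Of these, 5 were higher (19.2%), against 22.9% of all genes, and 8 lower (30.8%), against 19.8%. With ITGB8 left aside, 7 of 25 were lower (28%). ITGB4 (1.18) and ITGB8 (-0.86 ± 0.12) were the farthest apart. LAMA5 was higher in shCPT-1 (0.64 ± 0.08) and LAMB3 lower (-0.59 ± 0.11, adjusted p = 0.00123). In shCPT-2 against ETX 14 of 26 were called (53.8%), against 45.8%, with 3 higher (11.5%), against 24.9% of all genes, and 11 lower (42.3%), against 20.9%. Without ITGB8 10 of 25 were lower (40%). ITGA2 was 2.38-fold lower (-1.25 ± 0.12, adjusted p = 5.52e-06). ITGB8 differed by -2.29 ± 0.12, with every shCPT-2 array under the array medians. In shCPT-2 against shCPT-1 12 of 26 were called (46.2%), against 35.5%, with 3 higher (11.5%), against 17.7% of all genes, and 9 lower (34.6%), against 17.8%. Without ITGB8 8 of 25 were lower (32%), and LAMA5 (-1.23) and ITGA2 (-0.98 ± 0.12) were the farthest apart after ITGB8, whose arrays were under the medians in both groups. By the moderated F test over the 4 groups 18 of 26 were called (69.2%), against 69.8% of all genes.

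Genes that work with these receptors were read from lists of known partners, which were chosen with earlier results of these data known. Their counts stand against shares of all genes of 21.9% higher and 19.4% lower with ETX, 23.1% and 18% in shCPT-1, and 25.6% and 20.5% in shCPT-2. Of 13 tested basement membrane partners of laminins, 2 were higher (15.4%) and 6 lower (46.2%) with ETX (median -0.13). In shCPT-1 6 were higher (46.2%) and 3 lower (23.1%, median 0.06), and in shCPT-2 2 were higher (15.4%) and 4 lower (30.8%, median -0.05), against medians of -0.013, 0.0075 and 0.0046 over all genes. COL4A5, a chain of basement membrane collagen, had the lowest log2 changes of this list, -2.96 ± 0.18 in shCPT-1 and -3.16 ± 0.18 in shCPT-2 (adjusted p = 1.08e-07 and adjusted p = 3.98e-08), and was not called with ETX (0.06 ± 0.18). Its knockdown arrays were all under the array medians, at -1.18 and -1.38 relative to them, against 1.77 in scramble, so it entered the test only through its bright groups and the size of its falls is less certain. SPARC, also called as lower in both knockdowns, had means of 5.3 in shCPT-1 and 5.47 in shCPT-2, under the array medians, against 6.35 in scramble. COL4A5 and SPARC are part of the lower counts of this list in both knockdowns, so those counts are given as a description. NTN4, a netrin that binds the laminin gamma chain and opens laminin networks, rose with ETX (0.77 ± 0.05), in shCPT-1 (0.88 ± 0.05) and in shCPT-2 (0.18 ± 0.05). COL7A1, the collagen of anchoring fibrils, fell with ETX (-0.72 ± 0.10) and in shCPT-2 (-0.48 ± 0.10).

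**Figure D5:**
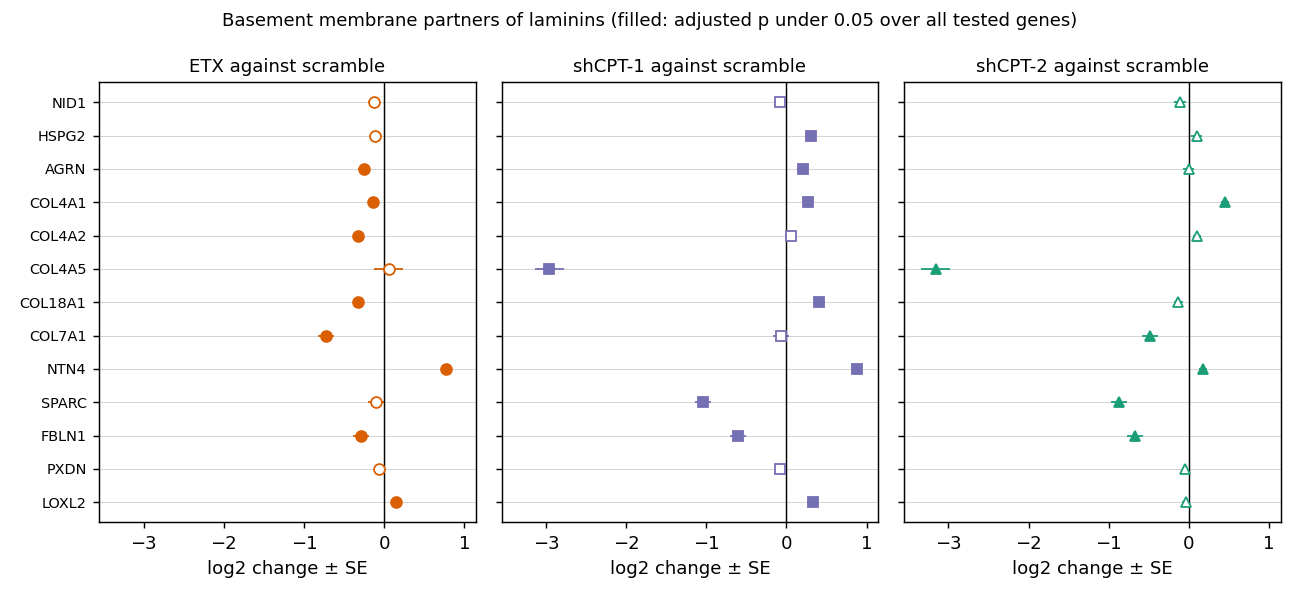
Log2 change ± SE of the 13 tested basement membrane partners of laminins against scramble, in a panel each for ETX, shCPT-1 and shCPT-2 (n = 3 arrays per group), with filled symbols for an adjusted p under 0.05 over all tested genes. COL4A5 lies at -2.96 in shCPT-1 and -3.16 in shCPT-2, where its arrays were under the medians, and near 0 with ETX.

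Of 18 tested laminin receptors other than integrins, hemidesmosome genes and tetraspanins, 4 were higher (22.2%) and 8 lower (44.4%) with ETX, 3 (16.7%) and 2 (11.1%) in shCPT-1, and 3 (16.7%) and 4 (22.2%) in shCPT-2 (medians -0.09, 0.08 and -0.01). PLEC, which ties ITGB4 to keratin filaments, fell with ETX (-0.45 ± 0.09), in shCPT-1 (-0.60 ± 0.09) and in shCPT-2 (-0.68 ± 0.09, adjusted p = 4.08e-05). BCAM, a receptor for LAMA5, rose in shCPT-1 (0.49 ± 0.05, adjusted p = 6.13e-06) and in shCPT-2 (0.15 ± 0.05) and fell with ETX (-0.26 ± 0.05). SSPN, sarcospan of the dystrophin complex, rose with ETX (0.80 ± 0.05), where its mean was 6.4, against 5.61 in scramble. All its other arrays were under the medians, so it entered the test only through ETX, and the difference of -0.50 ± 0.05 in shCPT-2 lies between groups both under them. SDC4, a syndecan that works beside integrins, fell with ETX (-0.34 ± 0.05) and rose in shCPT-1 (0.18 ± 0.05), and DST, a hemidesmosome plakin, rose in shCPT-2 (0.45 ± 0.05).

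Inside the cell, 28 cytoplasmic linkers and activators of integrins were tested, of which 3 were higher (10.7%) and 11 lower (39.3%) with ETX, 5 (17.9%) and 7 (25%) in shCPT-1, and 6 (21.4%) and 11 (39.3%) in shCPT-2 (medians -0.11, -0.05 and -0.07). KANK2, which binds talin, fell with ETX (-0.45 ± 0.04) and in shCPT-2 (-0.75 ± 0.04, adjusted p = 7.4e-08), and FERMT1, the epithelial kindlin that helps activate integrins, fell in shCPT-1 (-0.65 ± 0.06) and shCPT-2 (-0.44 ± 0.06). TNS1, a tensin, rose in shCPT-2 (0.98 ± 0.11) and in shCPT-1 (0.37 ± 0.11). Of 16 adhesion kinases and adaptors 6 were higher (37.5%) and 3 lower (18.8%) with ETX, 4 (25%) and 3 (18.8%) in shCPT-1, and 6 (37.5%) and 4 (25%) in shCPT-2 (medians 0.05, 0.00 and 0.08). LPXN, leupaxin of the paxillin family, fell by 1.47 in shCPT-1 and 0.93 in shCPT-2 and rose slightly with ETX (0.14 ± 0.05). DOCK1, an exchange factor that acts behind integrins on RAC1, rose in shCPT-1 (0.54 ± 0.05) and shCPT-2 (0.38 ± 0.05), and by less with ETX (0.17 ± 0.05).

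Of 15 tested integrin ligands other than laminins, 3 were higher (20%) and 4 lower (26.7%) with ETX, 1 (6.67%) and 6 (40%) in shCPT-1, and 2 (13.3%) and 8 (53.3%) in shCPT-2 (medians 0.03, -0.02 and -0.19). ICAM2, a ligand of leukocyte integrins, fell in shCPT-1 (-1.38 ± 0.06, adjusted p = 4.84e-09) and shCPT-2 (-1.30 ± 0.06, adjusted p = 5.79e-09), and was not called with ETX (0.15). ICAM1, its better known relative, fell in both as well (-0.66 ± 0.07 and -0.68 ± 0.07). TGFBI, a matrix ligand, fell with ETX (-0.44 ± 0.04) and rose slightly in shCPT-1 (0.15 ± 0.04). CCN2, a matricellular ligand, rose with ETX (1.13 ± 0.14) and in shCPT-2 (0.77 ± 0.14). THBS1, thrombospondin, rose with ETX (0.60 ± 0.09) and fell in shCPT-1 (-0.35 ± 0.09). Smaller lists of laminin-related genes (3 tested) and integrin-related genes (6 tested) outside the subunit families had 1 higher and 0 lower and 1 higher and 1 lower with ETX, 1 and 0 and 2 and 1 in shCPT-1, and the same numbers in shCPT-2.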

How the data were processed

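The data are 1 intensity per probe set and array for 12 arrays, on a linear scale, as deposited by the authors. The submitters' processing notes name RMA for these deposited intensity values and give no steps, version or settings. The genome build is not stated there. Of 54613 probe sets that are not controls, 41091 had 1 gene symbol in the platform annotation, 1801 carried several symbols and 11721 had none.

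Log2 intensities were fitted with limma 3.58.1 (lmFit, eBayes, no covariates, all 12 arrays) in R 4.3.3. Probe sets brighter than the array median on 3 or more arrays were kept, and the kept probe set with the highest mean stood for its gene, which gave 12887 tested genes. Tests were two-sided, with Benjamini-Hochberg adjustment over these genes in each comparison. For arrays, their number limits the precision, and an exact test of 3 against 3 cannot go below p = 0.1. Named with all array values are subunits called against scramble with a change of at least 0.5 and at least 1 group mean above the array medians, and other called subunits are named with their change. From each list of partner genes at most 3 called genes, those with the smallest p, per comparison are named, fewer where fewer are described. A named gene's called changes in the other comparisons against scramble are given too. Its changes that were not called are given for some genes only. The members and lists were chosen with earlier results of these data known.

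The labels number the arrays of each group 1 to 3. Over 18 pairs of same-numbered arrays the deviations from the group means correlated at -0.46 to 0.33, and 8 of the 18 were above 0.1. Over 36 pairs with other numbers they correlated at -0.45 to 0.61, and 15 of the 36 were above 0.1. The fit therefore used no pairing, although deviations from means of 3 arrays cannot exclude one. Leaving out an array kept the genes tested on all 12. The alternatives tried are given at the end. The steps were also tested on simulated data. Figures were drawn with Python 3.11.15 and matplotlib 3.10.9. RefSeq promoter windows were matched by symbol.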

Additional observations from a re-analysis of the deposited data

How the results depend on the processing

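Of the 32 called changes of subunits against scramble, 24 kept their call in every alternative other than a gene's further probe sets taken alone, and 8 lost it in at least 1: ITGA10, ITGB4, LAMA5 and LAMC1 with ETX, ITGA2 in shCPT-1, and ITGB2, LAMB3 and LAMC1 in shCPT-2. The number lower with ETX, 5 as reported, was 3 with the kept probe sets averaged per gene, 3 without probe sets ending in _s_at, _x_at or _a_at, 3 with the groups compared alone, 1 with the actin covariate, and between 1 and 6 when an array was left out. The number higher in shCPT-1, 5 as reported, was 3 without the _s_at, _x_at and _a_at probe sets, where 17 subunits were tested. The number higher in shCPT-2, 3 as reported, lay between 2 and 5 when an array was left out. The other counts of subunits stayed within 1.5 times of those reported. With the replicate block 7 subunits were higher and 4 lower with ETX, 5 and 4 in shCPT-1, and 3 and 9 in shCPT-2. Of the changes called as reported, those whose sign turned in an alternative did so at another probe set of the gene: ITGB2 with ETX (-0.01) and in shCPT-2 (-0.11), ITGB4 with ETX (0.09) and in shCPT-1 (-0.09), LAMC1 with ETX (0.07) and ITGA2 in shCPT-1 (-0.01). LAMC1 in shCPT-1, not called as reported, was called with the sign turned at its other probe set (-0.34) and with its probe sets averaged (-0.16). The causes were not tested. Among changes not called, 19 turned their sign without being called there either, under the actin covariate, other scalings, a left-out array or other probe sets (at most 0.3 in size). Of the changes not called, 19 were called in at least 1 alternative. The actin covariate gave such a call for ITGA3 (0.20) and ITGB1 (0.14) with ETX and for ITGA3 (0.25) and LAMB3 (-0.25) in shCPT-1. In shCPT-2 it gave one for ITGAE (-0.25), ITGB4 and ITGB5. Fitting only the groups compared gave one for ITGB8 with ETX (-0.28). Leaving out scramble 3 did so for ITGA1 with ETX (-0.26) and in shCPT-1 (-0.25), scramble 1 for ITGB4 in shCPT-2 (0.21), ETX 2 for ITGA7 with ETX (0.24) and in shCPT-2 (0.18), ETX 3 for ITGA2B, ITGA8 (both with ETX) and ITGA3 (shCPT-1), shCPT-1 1 and shCPT-2 3 for ITGB5 in shCPT-2 (-0.18 and -0.23), shCPT-2 1 for LAMA2 in shCPT-2, and shCPT-2 2 for ITGB8 with ETX (-0.28), ITGA3 in shCPT-1 (0.15), and ITGA6 and ITGAV as given above. With no filter all 35 subunits were tested, and those that the filter had left out lay under the medians on at least 10 arrays, which limits what their values show.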

Other observations

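Without the filter on dim probe sets, 9 further subunits had a value, and 2 of them had a called change. LAMB4 was lower with ETX than in scramble (-0.18 ± 0.06 SE, limma adjusted p = 0.0357), between means of 5.13 and 5.32, both under the array medians. ITGA9 was higher in shCPT-1 and in shCPT-2 than with ETX (0.32 ± 0.10, adjusted p = 0.0285, and 0.42 ± 0.10, adjusted p = 0.00563), with means of 5.62 and 5.71, against 5.30 with ETX.

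On scramble 3, whose actin control signal was nearest to those of the ETX and knockdown arrays, several subunits lay apart from scramble 1 and 2. ITGA10 read 7.51 there, against 8.05 and 7.87, and ITGB4 7.15, against 7.53 and 7.4, while ITGA6 read 10.78, against 10.22 and 10.42. The part of that control in the changes against scramble was not tested beyond the fit with it as a covariate.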
